A study of Rattus norvegicus and Mus musculus with 17 samples.

Results

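The genes described here are those of the proteasome. They were taken as every symbol in the 3 deposited tables that begins with Psma, Psmb, Psmc, Psmd, Psme, Psmf or Psmg followed by a digit. The rule found 44 of the 11532 symbols in the tables, with 13 of 4649 in the mouse table, 39 of 9082 in the Morris hepatoma table and 9 of 2093 in the regenerating liver table. Only Psmc4 was in all 3 tables, and 6 genes were in both rat tables. Of the 44, Psmc3ip matched by its letters alone: it encodes a cofactor of meiotic recombination and no part of the proteasome. The tables list only genes whose deposited p-value was below 0.05, so a subunit without a value here was not analysed. The same selection makes groups without overlap the rule among the listed genes. Such a separation is therefore no support for a gene on its own.

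RNA of whole liver or tumour tissue from male animals was sequenced in 17 libraries. The mice were C57BL/6 and all had received 50 mg/kg diethylnitrosamine (DEN), a liver carcinogen, at 14 days of age and 2 mg/kg of TCPOBOP, an agonist of the nuclear receptor CAR that promotes liver tumours, 30 days later. Livers were collected either at 5 months, ahead of tumour formation (n = 3), or at 8 months, when tumours were present (n = 3), so age and tumour cannot be told apart. The rats were of the ACI strain. Control livers came from untreated rats (n = 3) of the age of the tumour hosts, which were injected into the liver at 10 weeks with 1000000 MH3924a cells, a Morris hepatoma line, and gave their tumours 2 weeks later (n = 4). Regenerating livers came from rats of 10 to 12 weeks, 24 hours after partial hepatectomy (n = 4). All hepatoma libraries thus come from 1 transplanted line growing in a host liver. The labels do not say whether each library is 1 animal, so the p-values measure only the spread between these libraries.

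The proteasome breaks down proteins tagged with ubiquitin. Its 20S core is a stack of rings of alpha subunits (Psma), which gate the entrance, around rings of beta subunits (Psmb), of which Psmb5, Psmb6 and Psmb7 cut peptide bonds. The 19S regulatory particle binds ubiquitin, removes it and feeds the unfolded protein into the core. Its base holds a ring of ATPases (Psmc) and scaffold and receptor subunits (Psmd), and its lid holds the remaining Psmd subunits. Interferon induces the immunoproteasome, in which Psmb8, Psmb9 and Psmb10 take the places of Psmb5, Psmb6 and Psmb7 and shape the peptides that are shown on MHC class I. Psme1 to Psme4 encode activators that cap the core in place of the 19S particle, and Psmg1 to Psmg4 and Psmd5, Psmd9 and Psmd10 encode chaperones of assembly. Liver cells turn over much protein, and proteasome genes are often transcribed together.

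Values are RPKM, read counts scaled to transcript length and to the reads of the library, printed per library in the order of the labelled library numbers. They are per transcript length, so levels of different genes can be set side by side, with the caution that a share of a library's reads is not an amount per cell. In whole tissue, fewer cells of a type and less RNA per cell cannot be told apart. A gene is called higher or lower when limma's adjusted p on log2(RPKM + 1) is below 0.05, and fold changes on the log2 scale are given with their standard error (SE). Read totals were not given. The steps between low values placed the depth of the libraries of 1 group between 0.88 and 1.14 times that of the first library of that group. Control library 3 was at 1.14. The libraries of the hepatoma stood apart in their content of liver transcripts. The summed level of 7 hepatocyte markers, among them albumin, was 98923 to 115989 RPKM in the controls, 1101 and 104 RPKM in hepatoma libraries 1 and 2, and 27374 and 22269 RPKM in hepatoma libraries 3 and 4.

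In the Morris hepatoma the genes of every part of the particle that had a value stood higher on the deposited scale, though for many the direction turned when library medians were set equal. All 38 genes that passed the filter of 1 RPKM, Psmc3ip counted with them, were called higher than in control liver, and in none did any hepatoma library overlap the controls. Psmc3ip, Psma3l and Psmb11, with control means of 0.809, 0.947 and 0.713 RPKM, passed the filter only through their hepatoma values. For these a call of higher was close to fixed in advance, and they are included in the counts of this paragraph. The fold changes of the 38 genes ran from 0.87 to 2.64 on the log2 scale, with a median of 1.49. The background was of the same kind. Of the 8233 genes tested here, 85.5% were called higher and 8.73% lower, 87.2% were higher without overlap, and the median log2 fold change was 1.58, so 15 proteasome genes lay above it and 23 below. A called rise of at least 2-fold was found in 34 of the 38 proteasome genes (89.5%) and a called change of that size in 80.2% of all genes tested. The summed level of the 39 listed proteasome genes was 1723, 1723 and 1107 RPKM in the controls and 4407, 5585, 3824 and 3914 RPKM in the hepatomas. The hepatomas with the fewest hepatocyte transcripts, libraries 1 and 2, thus had the highest sums. With hepatoma libraries 1 and 2 alone, 36 of the 38 were called higher, with a median of 1.69, beside 1.68 for all genes tested.

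**Figure D1:**
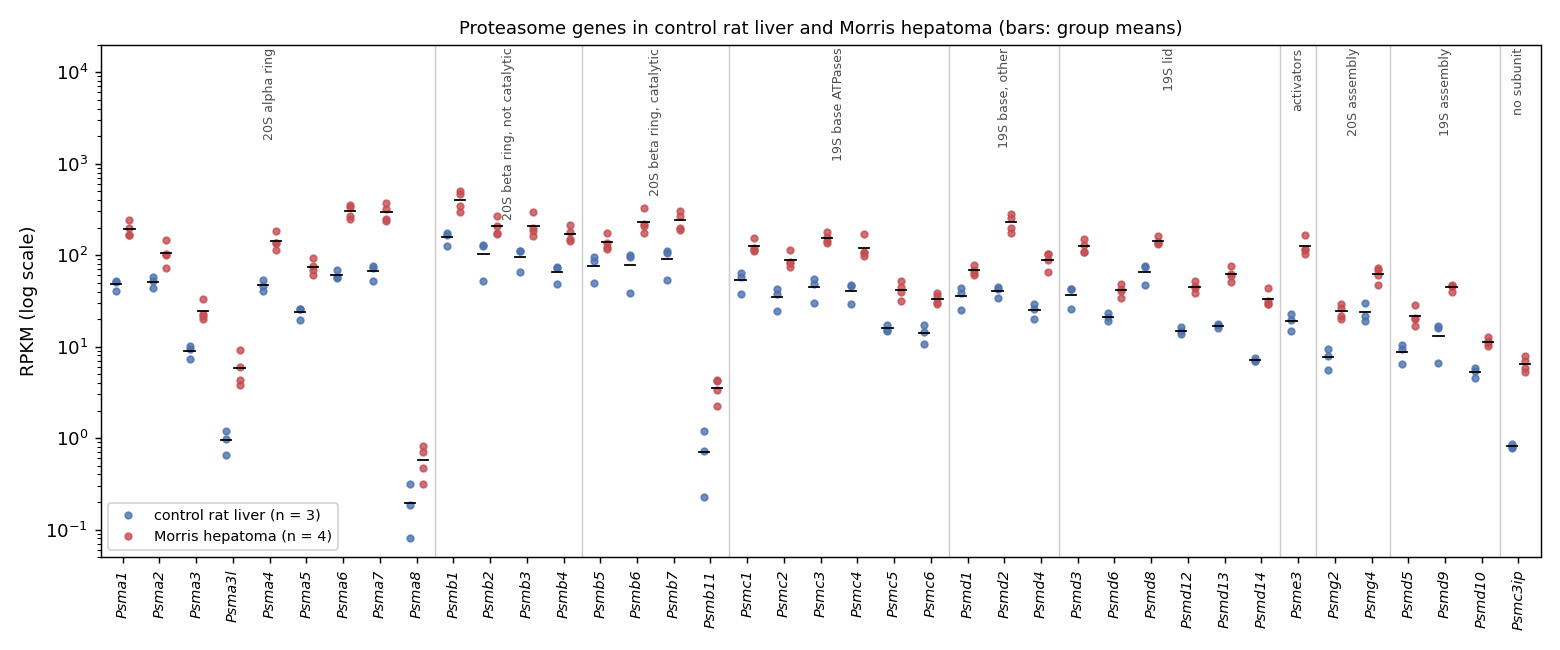
RPKM on a log scale of the 39 listed genes, by role in the proteasome, in each control liver (blue, n = 3) and Morris hepatoma (red, n = 4) library; black bars are group means. On this deposited scale the hepatoma libraries sit above the controls for all genes but Psma8, which stays below 1 RPKM and overlaps.

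The alpha ring held some of the largest differences. Psma6 stood at 68.3, 58.3 and 55.5 RPKM in the controls and 339.6, 350.4, 249 and 269 RPKM in the hepatomas. The lowest hepatoma was well above the highest control, and the means were 4.97-fold apart (log2 fold change 2.29 ± 0.21, adjusted p = 1.10e-05). Psma7 and Psma1 followed at 2.12 ± 0.24 and 1.98 ± 0.21 on the log2 scale. Psma2 had the smallest difference of the ring, with 51.6, 58.1 and 43.5 RPKM in the controls and 104, 147, 101 and 72.2 RPKM in the hepatomas. Hepatoma library 4 was closest to the controls for this gene (log2 fold change 1.01 ± 0.25, adjusted p = 0.00942). Psma3, Psma4 and Psma5 lay between, at 1.35, 1.57 and 1.61. The ring's subunits are needed in equal number, but the levels of its mRNAs were not equal: in control liver they ran from 8.94 RPKM for Psma3 to 66.4 RPKM for Psma7, 7.43-fold apart, and in hepatoma from 24.5 RPKM for Psma3 to 302 RPKM for Psma6, 12.3-fold apart. The level of Psma3 is uncertain. A near-copy named Psma3l is listed apart at 0.947 ± 0.269 RPKM in controls and 5.83 ± 2.46 RPKM in hepatomas (SD, n = 3 and 4), RefSeq gives that name as another name of Psma3, and reads may have been divided between them. Psma8, the alpha subunit of testis, stayed below 1 RPKM in all 7 libraries and was not tested.

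Among the beta subunits, those that cut peptide bonds were called higher to unequal extents. Psmb5, the chymotrypsin-like subunit and target of the drug bortezomib, was at 94.8, 86.5 and 49.6 RPKM in the controls and 123, 176, 116 and 136 RPKM in the hepatomas. The gap between the highest control and the lowest hepatoma was narrow, and the log2 fold change of 0.87 ± 0.27 was the smallest of all proteasome genes tested (adjusted p = 0.0286). The call was lost without control library 3 (log2 fold change 0.58, adjusted p = 0.0751), without hepatoma library 2 (adjusted p = 0.0976) or without hepatoma library 4 (adjusted p = 0.0719), and with hepatoma libraries 1 and 2 alone (adjusted p = 0.0948). Psmb6, the caspase-like subunit, was at 96.6, 99.8 and 38.3 RPKM in the controls and 208, 323, 175 and 216 RPKM in the hepatomas. Control library 3 was far below the other controls, and the difference was 1.63 ± 0.36 (adjusted p = 0.00456). Psmb7, the trypsin-like subunit, was at 111, 105 and 53.4 RPKM in the controls and 271, 304, 197 and 188 RPKM in the hepatomas (log2 fold change 1.45 ± 0.30, adjusted p = 0.00324). In control liver the means of the catalytic trio were within 1.17-fold of each other, from 76.9 RPKM for Psmb5 to 89.9 RPKM for Psmb7, and in hepatoma within 1.74-fold, from 138 to 239.9 RPKM. Psmb11, the form of the catalytic subunit that is typical of thymus, was low in both groups, at 1.19, 0.719 and 0.229 RPKM and 4.17, 2.25, 3.33 and 4.27 RPKM. None of the immunoproteasome genes Psmb8, Psmb9 and Psmb10 has a value in this table.

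Of the beta subunits without catalytic activity, Psmb4 had the largest and Psmb2 the smallest difference. Psmb4 was at 73.9, 72.8 and 48.8 RPKM in the controls and 180.3, 213, 151 and 143 RPKM in the hepatomas, with no overlap (log2 fold change 1.39 ± 0.23, adjusted p = 7.19e-04). Psmb2 was at 129.7, 125 and 51.7 RPKM in the controls, where library 3 was far below the others, and 208, 270.5, 173 and 171 RPKM in the hepatomas (log2 fold change 1.09 ± 0.34, adjusted p = 0.0299). Its call was lost without control library 3 (log2 fold change 0.66, adjusted p = 0.0613), without hepatoma library 1 (adjusted p = 0.0667) or 2 (adjusted p = 0.111), and with hepatoma libraries 1 and 2 alone (adjusted p = 0.0704). Psmb1 was the most abundant proteasome transcript of either group, at 156 ± 27.7 RPKM in the controls and 401 ± 96.2 RPKM in the hepatomas (SD, n = 3 and 4).

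The promoter of Psmb5 is shown for a match to the core of the antioxidant response element, TGACNNNGC, the type of site bound by the Nrf factors that control proteasome genes. The sequence is the 250 bases before the RefSeq start in rat build GRCr8, taken for 1 transcript of each gene, chr15:32047380-32047629, minus strand, and the capitals mark the match, which begins 60 bases before the start.
Psmb5: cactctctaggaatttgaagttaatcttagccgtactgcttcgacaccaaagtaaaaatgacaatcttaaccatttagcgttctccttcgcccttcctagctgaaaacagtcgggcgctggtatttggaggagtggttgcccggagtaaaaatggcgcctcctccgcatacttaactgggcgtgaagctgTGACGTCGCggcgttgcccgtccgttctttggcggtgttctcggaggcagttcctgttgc
The search covered both strands from 250 bases before to 50 bases after the start. Of the genes described here 36 had a promoter in the RefSeq table, Psmc3ip counted with them. The core was found in 7 of the 36 (Psma3, Psmb2, Psmb5, Psmb6, Psmd1, Psmd3 and Psmd9) and in 12.1% of all 33469 promoters there. In 14 of the 36 the RefSeq gene model begins upstream of the transcript start used for the window. Of the 7 genes with the core, Psmb5, Psmd1, Psmb2 and Psma3 lay below the median log2 fold change of all genes tested in hepatoma. Psmb6, Psmd3 and Psmd9 lay above it. A link between the core and the fold change was not tested.

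The 19S base ATPases, which unfold the substrate, were called higher in 6 of 6, beside 85.5% of all genes tested. Their fold changes lay between 1.21 and 1.80 on the log2 scale. Psmc3 was at 48.9, 54.8 and 30.1 RPKM in the controls and 156, 181, 137 and 143 RPKM in the hepatomas (log2 fold change 1.80 ± 0.24, adjusted p = 1.44e-04). Psmc6 was at 17.3, 14.6 and 10.6 RPKM in the controls and 30.8, 38.7, 35.3 and 29.2 RPKM in the hepatomas (log2 fold change 1.21 ± 0.20, adjusted p = 7.52e-04). Both genes had separate groups, and library 3 was the lowest control for each. The non-ATPase subunits of the base spread more widely. Psmd2, the scaffold to which ubiquitin shuttles dock, was at 44.6, 42.7 and 33.6 RPKM in the controls and 255, 285, 174 and 196 RPKM in the hepatomas. The means were 5.65-fold apart, and the log2 fold change of 2.45 ± 0.23 was second among the proteasome genes tested (adjusted p = 1.36e-05). Its partner scaffold Psmd1 was at 38.7, 43.4 and 25.2 RPKM in the controls and 63.2, 78.9, 69.5 and 60.4 RPKM in the hepatomas (log2 fold change 0.94 ± 0.22, adjusted p = 0.00693). The pair, near-equal in control liver, were thus 3.35-fold apart in hepatoma. Psmd4, a receptor of ubiquitin chains, was at 25.6, 29.5 and 19.8 RPKM in the controls and 102, 102, 89.3 and 64.9 RPKM in the hepatomas, with separate groups (log2 fold change 1.79 ± 0.23, adjusted p = 9.67e-05).

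In the lid, the largest difference was in Psmd14, the enzyme that cuts ubiquitin chains off the substrate. It was at 6.87, 7.50 and 6.89 RPKM in the controls and 31.6, 43.4, 28.9 and 28.9 RPKM in the hepatomas, a spread of less than 1 RPKM in the controls and a 4.68-fold difference of the means (log2 fold change 2.06 ± 0.18, adjusted p = 1.05e-05). It remained the least abundant of the 6 lid transcripts in both groups. Psmd6 had the smallest difference, with 23.4, 21.0 and 19.2 RPKM in the controls and 40.4, 48.1, 42.8 and 33.8 RPKM in the hepatomas (log2 fold change 0.92 ± 0.18, adjusted p = 0.00211). Psmd3, Psmd8, Psmd12 and Psmd13 lay between at 1.74, 1.13, 1.54 and 1.79 on the log2 scale. Psmd7 and Psmd11 of the lid have no value here.

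**Figure D2:**
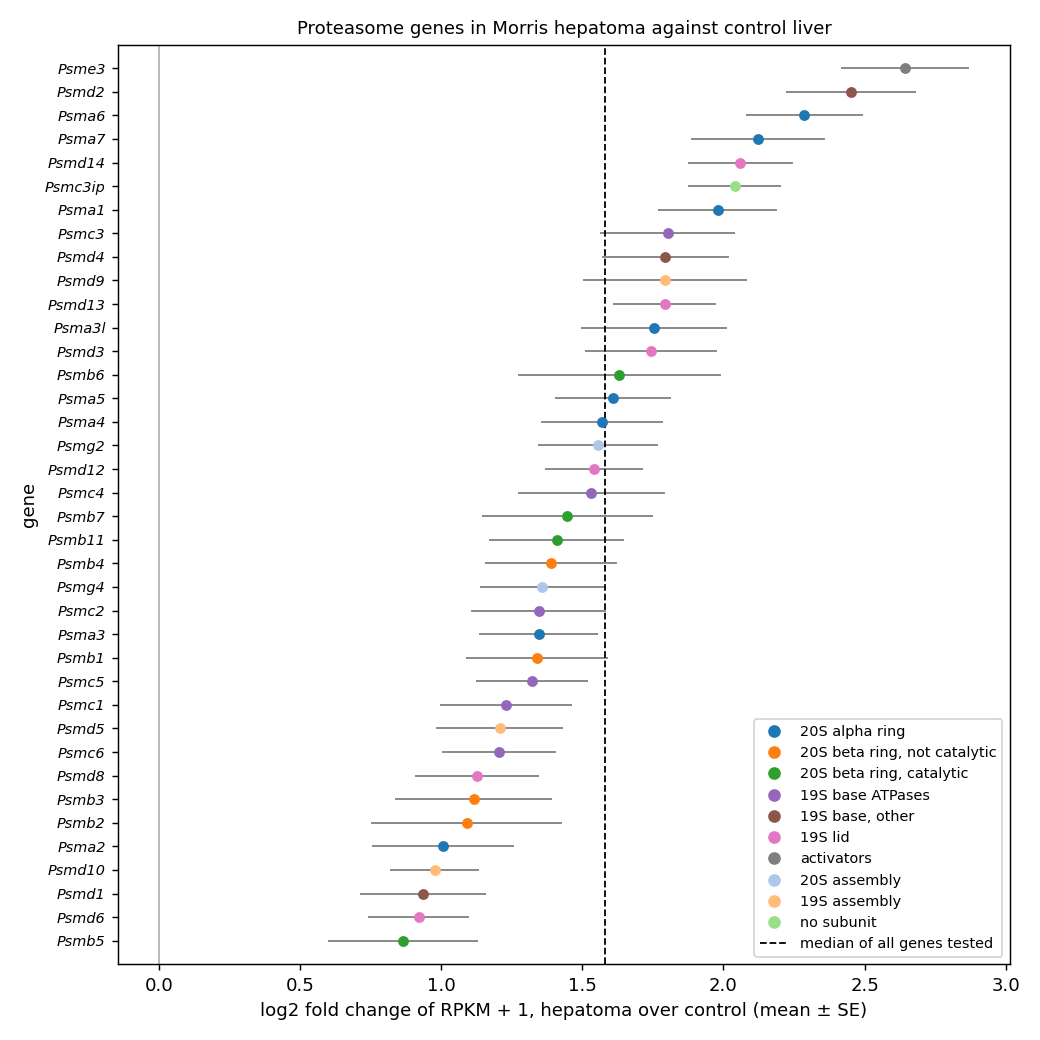
Log2 fold change of RPKM + 1 in Morris hepatoma over control liver, with its SE, for the 38 genes tested, coloured by role. The dashed line is the median of all 8233 genes tested (1.58): 15 of the genes lie above it, with Psme3 (2.64), Psmd2 (2.45) and Psma6 (2.29) furthest, and 23 below.

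Of all 38 genes the activator Psme3 had the largest log2 fold change. It encodes PA28gamma, the nuclear cap of the core that promotes breakdown of proteins such as p21 without ubiquitin. Its level was 19.6, 22.7 and 14.8 RPKM in the controls and 115, 166, 104 and 113 RPKM in the hepatomas. Every hepatoma library was far above the highest control, and the means were 6.54-fold apart (log2 fold change 2.64 ± 0.23, adjusted p = 8.15e-06). By the ratio of means Psmc3ip, no part of the proteasome, was ahead at 8.04-fold. Its control mean was 0.809 RPKM, a level at which adding 1 RPKM shrinks the log2 fold change. Psme1, Psme2 and Psme4, the other activators, and the inhibitor Psmf1 have no value in this table. The 250 bases before the start of Psme3 are printed because this gene led the comparison on the log2 scale. They lie at chr10:86757683-86757932, plus strand of GRCr8, and the capitals mark a CCAAT box on the opposite strand, 44 bases before the start.
Psme3: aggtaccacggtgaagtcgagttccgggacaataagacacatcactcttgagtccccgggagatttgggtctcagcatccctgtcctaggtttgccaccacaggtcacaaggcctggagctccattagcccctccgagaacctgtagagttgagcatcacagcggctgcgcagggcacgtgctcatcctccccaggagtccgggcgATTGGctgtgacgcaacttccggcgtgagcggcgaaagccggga
The pentamer CCAAT was in the 300-base window of 18 of the 36 genes searched, Psmc3ip among the 18, and of 37.5% of all promoters. No GAAANNGAAA and no TGACNNNGC was found in the window of Psme3.

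The assembly factors were called higher in 5 of 5, beside 85.5% of all genes tested. Of the chaperones of the core, Psmg2 was at 7.90, 9.48 and 5.57 RPKM in the controls and 26.4, 29.0, 21.6 and 19.8 RPKM in the hepatomas, and Psmg4 at 21.8, 30.0 and 19.3 RPKM and 60.9, 71.4, 47.0 and 68.7 RPKM. Their log2 fold changes were 1.56 ± 0.21 and 1.36 ± 0.22 (adjusted p = 1.79e-04 and 6.06e-04). Psmg1 and Psmg3 have no value here. Among the chaperones of the 19S base, Psmd9 was at 16.0, 16.9 and 6.55 RPKM in the controls, with library 3 far below the others, and 45.9, 46.2, 39.9 and 47.5 RPKM in the hepatomas (log2 fold change 1.79 ± 0.29, adjusted p = 5.79e-04). Psmd10, known as gankyrin and described as an oncoprotein of liver cancer, was at 4.56, 5.78 and 5.46 RPKM in the controls and 12.6, 11.6, 11.0 and 10.1 RPKM in the hepatomas. Its groups were far apart for their spread, yet its log2 fold change of 0.98 ± 0.16 (adjusted p = 5.42e-04) was among the smallest of the proteasome genes. Psmd5 was at 9.47, 10.4 and 6.45 RPKM and 20.7, 28.7, 20.1 and 16.8 RPKM (log2 fold change 1.21 ± 0.22, adjusted p = 0.00148). Psmc3ip, which is no part of the proteasome, was at 0.809 ± 0.0473 RPKM in the controls and 6.50 ± 1.17 RPKM in the hepatomas (SD, n = 3 and 4).

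These directions rest on the scale of the deposited values. When the library medians were set equal, the median log2 fold change of all genes tested moved from 1.58 to -0.08, and 3 proteasome genes were called higher (Psme3 at 0.98, Psmd2 at 0.79 and Psma6 at 0.62) and 4 lower (Psmb5 at -0.80, Psmd6 at -0.74, Psmd1 at -0.73 and Psmd10 at -0.69). All genes split into 2029 called higher and 2389 lower under that scaling. With quantile normalization 13 proteasome genes were called higher and 1, Psmd10, lower. Psme3, Psmd2 and Psma6 were called higher under every alternative in which they were tested. Within the groups the libraries moved together: control library 3, the deepest of the controls, was the lowest control in 32 of the 38 genes, against 54.7% of all genes tested, and hepatoma library 2 the highest hepatoma in 34 of 38, against 43.5%. Markers of other cells also differed. The summed level of 4 of 5 listed fibroblast and stellate markers was 18.4 to 72.9 RPKM in the controls and 409 to 1034 RPKM in the hepatomas, that of 2 of 3 leukocyte markers 15.2 to 16.2 and 72.1 to 159.6 RPKM, and that of 2 of 4 endothelial markers 5.55 to 10.2 and 41.2 to 70.5 RPKM. Others went the opposite way or were mixed: the sums of 3 of 8 macrophage markers overlapped, at 109 to 133 and 121 to 164 RPKM, with Cd68 and Cd163 called higher and the Kupffer cell marker Clec4f called lower (log2 fold change -2.54 ± 0.58, adjusted p = 0.0125). Gzma, the 1 T and NK cell marker of 6 with a value, was also called lower (log2 fold change -1.26 ± 0.27, adjusted p = 0.00360). Their part in the proteasome values was not tested.

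The genes around the proteasome were called higher as well. Of a list of 14 symbols for factors that bind or build the particle 9 had a value, and 9 of 9 were called. They included Zfand2a, an arsenite-inducible proteasome-associated factor, at 4.58 ± 0.30 on the log2 scale, the deubiquitinase Usp14 at 2.36 ± 0.21, the proteasome-binding Zfand5 at 2.18 ± 0.16 and the assembly factor Pomp at 1.92 ± 0.25. Of 15 symbols for ubiquitin supply, ubiquitin shuttling and the Vcp segregase 13 had a value, and 13 of 13 were called higher. They were led by Ufd1l at 2.13 ± 0.20, Ubqln4 at 1.97 ± 0.27, the ubiquitin fusion gene Rps27a at 1.94 ± 0.27 and the ubiquitin-activating enzyme Uba1 at 1.85 ± 0.24. Nfe2l1 (NRF1), the transcription factor that raises proteasome genes when the particle is impaired, had means of 14.6 ± 2.91 and 52.2 ± 6.35 RPKM (SD, n = 3 and 4; log2 fold change 1.77 ± 0.19, adjusted p = 3.29e-05). Its small Maf partners Maff and Mafk differed by 3.73 ± 0.30 and 3.08 ± 0.21. In this list of 10 symbols 6 had a value. Ngly1, the enzyme that removes sugars from NRF1 and so activates it, was the 1 gene of the 6 called lower, with means of 14.6 ± 1.10 and 7.03 ± 2.87 RPKM (log2 fold change -1.02 ± 0.26, adjusted p = 0.0103). In the list of 13 for MHC class I peptide loading and its regulators 7 had a value. All 7 were called higher, with the peptide transporter Tap2 at 1.50 ± 0.18 and the interferon regulator Irf1 at 1.47 ± 0.26. All these counts stand against the background of 85.5%.

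In the regenerating liver 2 of 9 proteasome genes were called on the deposited scale, and 0 with library medians set equal. The 2 genes, Psmb9 and Psmb10, belong to the immunoproteasome. Psmb10, which replaces Psmb7, was at 18.1, 21.0 and 11.3 RPKM in the controls and 59.1, 47.2, 34.8 and 36.3 RPKM in the regenerating livers. The groups did not overlap, and the means were 2.64-fold apart, 16.8 ± 4.97 against 44.4 ± 11.3 RPKM (SD, n = 3 and 4; log2 fold change 1.36 ± 0.24, adjusted p = 0.0287). Psmb9, which replaces Psmb6, was at 29.0, 36.6 and 17.9 RPKM in the controls and 64.7, 55.1, 66.8 and 52.8 RPKM in the regenerating livers. Here too every regenerating liver lay above the controls, with a 2.15-fold difference (log2 fold change 1.13 ± 0.22, adjusted p = 0.0398). These were 2 of the 9 proteasome genes tested, against 21.2% of the 1703 genes tested that were called higher and 0.763% called lower. Both passed 2-fold, and a called change of that size was found in 10.2% of all genes tested. Psmb8, their partner in the immunoproteasome, and the subunits they replace have no value in this table.

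The calls for Psmb9 and Psmb10 depend on single libraries and on the scale. Neither was called without control library 1, or without regenerating library 1 or 2. Psmb10 was not called either without control library 2 (adjusted p = 0.0629), nor Psmb9 without regenerating library 3 (adjusted p = 0.0760) or 4 (adjusted p = 0.0628). The adjusted p of Psmb10 over the alternatives that changed the processing or left out a library ran from 0.0216 to 1, and that of Psmb9 from 0.0239 to 1. With the library medians set equal the log2 fold changes were 0.73 for Psmb10 and 0.50 for Psmb9, and neither was called. Markers of other cells also had higher values, as had Tf, the 1 hepatocyte marker of 8 with a value. Tf was at 12430 to 19519 RPKM in the controls and 19915 to 21185 RPKM in the regenerating livers (adjusted p = 0.379). Of all genes tested 89.4% were higher without overlap. Coro1a, the 1 leukocyte marker of 3 with a value, was at 2.36 to 3.46 RPKM in the controls and 4.64 to 7.10 RPKM in the regenerating livers (adjusted p = 0.0708). The summed collagen markers of fibroblasts and stellate cells were at 17.4 to 46.3 and 55.1 to 73.6 RPKM, and the endothelial marker Cdh5 at 2.19 to 3.93 and 4.22 to 9.79 RPKM. The part of these cells in the immunoproteasome values was not tested.

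The sequences ahead of Psmb10 and Psmb9 are shown for the core of the interferon-stimulated response element, GAAANNGAAA, since interferon induces both genes. The line for Psmb10 gives the 250 bases before its RefSeq start in GRCr8, chr19:50743293-50743542, minus strand, and the capitals mark matches. The line for Psmb9 gives 202 bases, chr20:4668750-4668951, plus strand, and stops where its RefSeq gene model begins, 48 bases before the transcript start used for its window.
Psmb10: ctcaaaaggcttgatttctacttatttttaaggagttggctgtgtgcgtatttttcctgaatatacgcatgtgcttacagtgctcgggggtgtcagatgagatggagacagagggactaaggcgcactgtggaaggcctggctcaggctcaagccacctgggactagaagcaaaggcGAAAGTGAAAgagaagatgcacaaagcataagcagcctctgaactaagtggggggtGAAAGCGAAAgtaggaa
Psmb9: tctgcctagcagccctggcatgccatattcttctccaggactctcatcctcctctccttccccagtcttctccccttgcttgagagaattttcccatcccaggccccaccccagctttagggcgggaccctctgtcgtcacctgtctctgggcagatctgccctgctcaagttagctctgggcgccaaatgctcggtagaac
Psmb10 held the core at 2 places, beginning 73 and 17 bases before the start, and Psme2, also induced by interferon, held it once, 53 bases before the transcript start used. That match lies inside the Psme2 gene model, which begins 304 bases upstream of this start, so its sequence is not printed. No match lay in the window of Psmb9, whose promoter is shared with the peptide transporter gene Tap1 on the other strand: their windows have 44 bases in common. The core was in 5 of the 36 promoters searched (also in Psma4, Psmb3 and Psmg4) and in 3.92% of all promoters of the table. Psma4, Psmb3 and Psmg4 have no value in the regenerating liver table.

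The other 7 proteasome genes of this table had positive fold changes, and none was called. The activator subunit Psme2, which is induced by interferon, was at 60.6, 67.1 and 37.4 RPKM in the controls and 92.5, 82.6, 77.0 and 75.6 RPKM in the regenerating livers, without overlap (log2 fold change 0.60 ± 0.19, adjusted p = 0.207). Psme3 was at 19.6, 22.7 and 14.8 RPKM in the controls and 24.5, 25.6, 23.0 and 28.6 RPKM in the regenerating livers (log2 fold change 0.41 ± 0.16, adjusted p = 0.367). The lowest regenerating liver exceeded the highest control by less than 1 RPKM. The assembly factors overlapped: Psmg2 was at 7.90, 9.48 and 5.57 against 11.5, 12.5, 9.46 and 14.3 RPKM, and Psmd5 at 9.47, 10.4 and 6.45 against 10.3, 13.6, 12.1 and 14.9 RPKM (adjusted p = 0.178 and 0.272). Psmb4, Psmc4 and Psmc5, structural subunits of the core and the base, had log2 fold changes of 0.39 ± 0.16, 0.51 ± 0.18 and 0.31 ± 0.13 (adjusted p = 0.513, 0.287 and 0.478). The 9 genes had a median of 0.51, beside 0.53 for all genes tested, and 7 of the 9 had groups that did not overlap, against 89.4% of all genes tested. Control library 3 was the lowest control in 8 of the 9. None of the Psma genes has a value here.

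**Figure D3:**
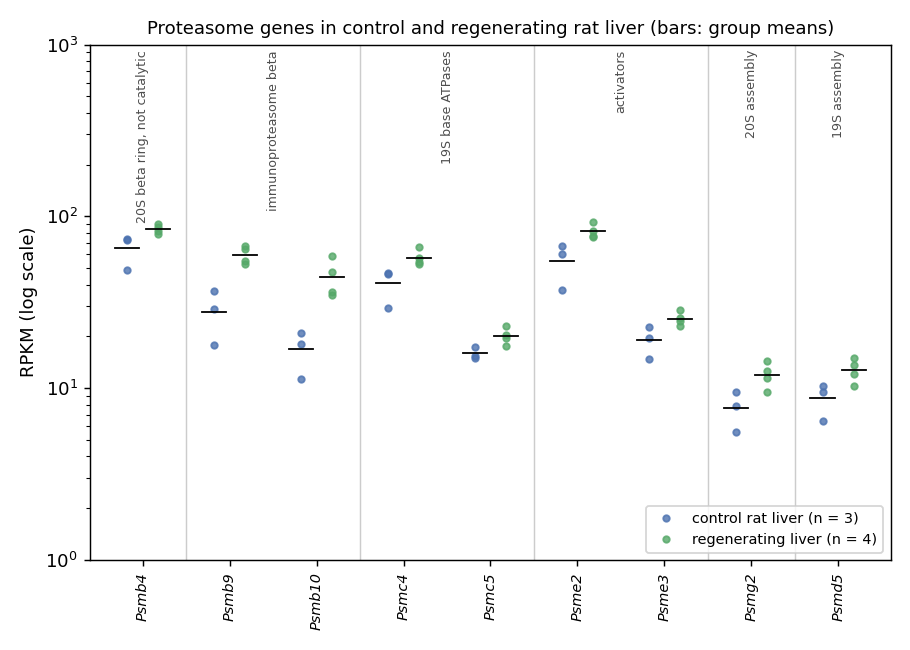
RPKM on a log scale of the 9 proteasome genes in control liver (blue, n = 3) and regenerating liver (green, n = 4), by role; points are libraries and black bars group means. Psmb9 and Psmb10 show the widest gaps, and the groups of Psmd5 and Psmg2 overlap.

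Of the 13 genes of the class I list 4 had a value and 1 was called, beside 21.2% of all genes tested that were called higher. This was Irf1, a transcription factor that acts on immunoproteasome genes, higher in the regenerating livers, from 6.20 ± 1.32 to 14.2 ± 3.76 RPKM (SD, n = 3 and 4; log2 fold change 1.07 ± 0.19, adjusted p = 0.0311). With library medians set equal only 19 of all genes tested were called higher, against 361 on the deposited scale. Tap2, Calr and Ifngr1 were not called, with adjusted p between 0.190 and 1. Of the shuttle and ubiquitin list 1 gene of 15 had a value, Ubqln1, at 0.56 ± 0.19 (adjusted p = 0.264). Of the NRF1 list 1 gene of 10 had one, Syvn1, at 0.31 ± 0.12 (adjusted p = 0.348). No other proteasome-bound factor had a value.

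There were values in all 3 rat groups for 6 genes, and 6 of 6 were called higher in the hepatoma than in the regenerating liver when these were compared directly. This was so for 80.8% of the 1673 genes tested, and 4.0% were called lower. Both comparisons with control liver use the same 3 controls. Psme3 stood at 115, 166, 104 and 113 RPKM in the hepatomas and 24.5, 25.6, 23.0 and 28.6 RPKM in the regenerating livers, 4.90-fold apart in their means (log2 fold change 2.23 ± 0.17, adjusted p = 2.43e-07). No library of one group came near the other. The others differed less: Psmc4, Psmc5, Psmb4 and Psmg2 by 1.02, 1.01, 1.00 and 0.96 on the log2 scale, each with an adjusted p of at most 0.00153. Psmd5 had the smallest difference, 0.70 ± 0.18 (adjusted p = 0.0235), and it was not called without hepatoma library 1 or 2 or without regenerating library 1, 2 or 3. No library overlapped between the groups in any of the 6 genes, as in 84.5% of all genes tested. Psme3 was the 1 gene of 6 above the median of all genes tested, 1.47. With library medians set equal Psme3 was still called higher (log2 fold change 0.69), while Psmb4, Psmd5 and Psmg2 were called lower, at -0.54, -0.84 and -0.58. With quantile normalization Psme3 was called higher at 0.84, and Psmd5 and Psmg2 lower at -0.82 and -0.55. With hepatoma libraries 1 and 2 alone, 6 of 6 were called higher.

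**Figure D4:**
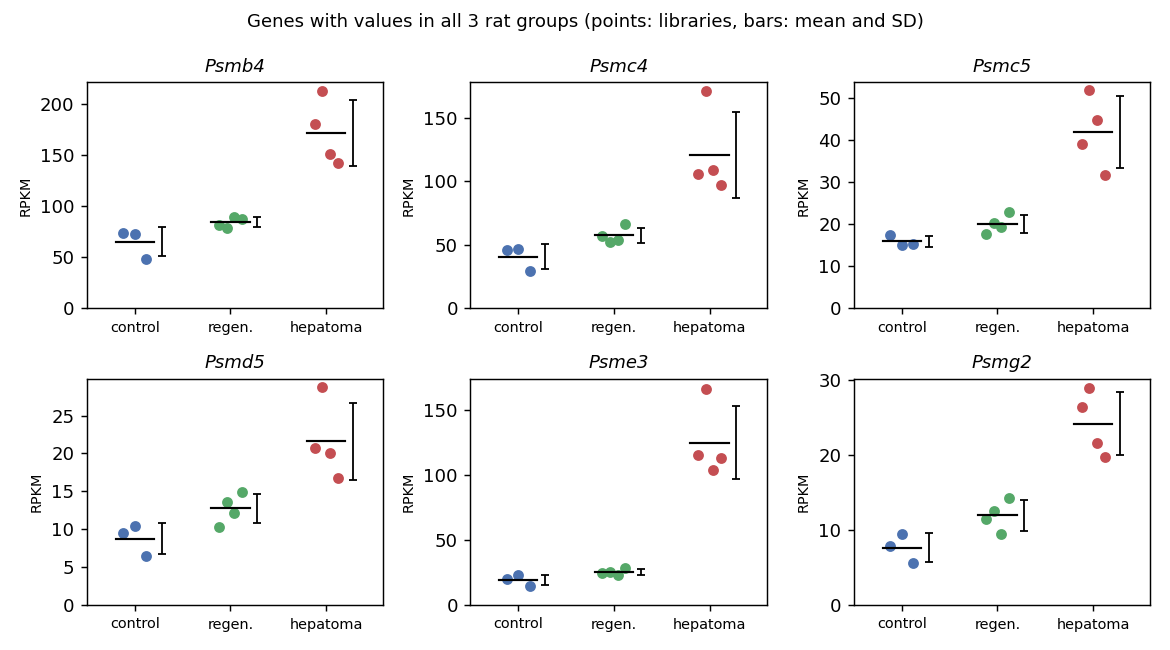
RPKM on linear axes that start at 0 of the 6 genes with values in control liver (n = 3), regenerating liver (n = 4) and Morris hepatoma (n = 4); points are libraries, horizontal bars means and error bars SD. Psme3 has the largest gap, from 28.6 RPKM in the highest regenerating liver to 104 RPKM in the lowest hepatoma.

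In the DEN mice all 13 listed proteasome genes had lower means in the livers with tumours, and 5 of 13 were called lower, but 0 with library medians set equal. They were 2 genes of the alpha ring, the scaffold Psmd2 and both assembly factors that had a value. Psma1 was at 72.9, 73.9 and 66.2 RPKM before tumours and 33.9, 47.4 and 46.1 RPKM with tumours (log2 fold change -0.74 ± 0.16, adjusted p = 0.0215). Psma5 was at 41.0, 51.1 and 43.5 RPKM before and 22.2, 28.4 and 29.7 RPKM with tumours (log2 fold change -0.74 ± 0.16, adjusted p = 0.0195). For both, library 1 of the livers with tumours was the lowest and the groups were separate. Psmd2 was at 56.5, 53.4 and 45.4 RPKM before and 25.8, 36.1 and 35.1 RPKM with tumours (log2 fold change -0.67 ± 0.17, adjusted p = 0.0378). Psmd9, a chaperone of the 19S base, was at 11.1, 11.9 and 10.6 RPKM before and 6.52, 7.71 and 6.85 RPKM with tumours (log2 fold change -0.61 ± 0.13, adjusted p = 0.0164). Psmg1, a chaperone of the alpha ring, was at 25.7, 25.6 and 24.4 RPKM before and 15.7, 19.6 and 17.5 RPKM with tumours. Its libraries before tumours lay close together and the groups were separate (log2 fold change -0.50 ± 0.13, adjusted p = 0.0421).

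Of all 3684 mouse genes tested 49.5% were called lower and 17.9% higher, and the 5 of 13 stand beside that share. The 13 genes had a median log2 fold change of -0.56, as had all genes tested (-0.56). None of the 13 changed by 2-fold or more, against 28.6% of all genes tested. In every one of the 13 the livers with tumours lay below those before tumours without overlap, as in 75.1% of all genes tested. Of the 3684 genes tested 2766 lay lower and 917 higher without overlap. A separation was thus close to fixed in advance by the selection of the listed genes. The 8 genes that were not called had log2 fold changes between -0.60 and -0.42 and adjusted p between 0.0684 and 0.146. Among them was Psmb7, the only one of the constitutive catalytic subunits with a value, at 120.0, 150.3 and 160.0 RPKM before and 89.0, 109 and 106 RPKM with tumours (log2 fold change -0.49 ± 0.17, adjusted p = 0.119). Its immunoproteasome counterpart Psmb10 was at 27.7, 30.4 and 26.1 RPKM before and 20.9, 17.6 and 24.1 RPKM with tumours (log2 fold change -0.42 ± 0.15, adjusted p = 0.146). The ratio of Psmb10 to Psmb7 was 0.199 ± 0.0339 before and 0.208 ± 0.0401 with tumours (SD, n = 3 each), so the means differed by less than the SD.

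Of the remaining subunits, Psmb1 was the most abundant, at 197, 197 and 183 RPKM before and 126, 148 and 146 RPKM with tumours. Psmb2 was at 104, 127 and 116 RPKM before and 71.6, 83.9 and 92.5 RPKM with tumours. Neither was called (adjusted p = 0.0862 and 0.105). The ATPase genes Psmc1 and Psmc4 had log2 fold changes of -0.58 ± 0.17 and -0.48 ± 0.15 (adjusted p = 0.0684 and 0.0791), with 66.3, 81.3 and 75.9 against 45.0, 60.9 and 43.6 RPKM for Psmc1. Psmd11, a lid subunit whose level has been linked to assembly of the full particle, was at 60.0, 51.8 and 48.2 RPKM before and 28.9, 42.1 and 37.6 RPKM with tumours (log2 fold change -0.56 ± 0.17, adjusted p = 0.0859). Psma6 was at 80.6, 101 and 91.0 RPKM before and 47.5, 73.0 and 60.4 RPKM with tumours (log2 fold change -0.60 ± 0.19, adjusted p = 0.0833). Of the activators and the inhibitor none has a value in this table.

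**Figure D5:**
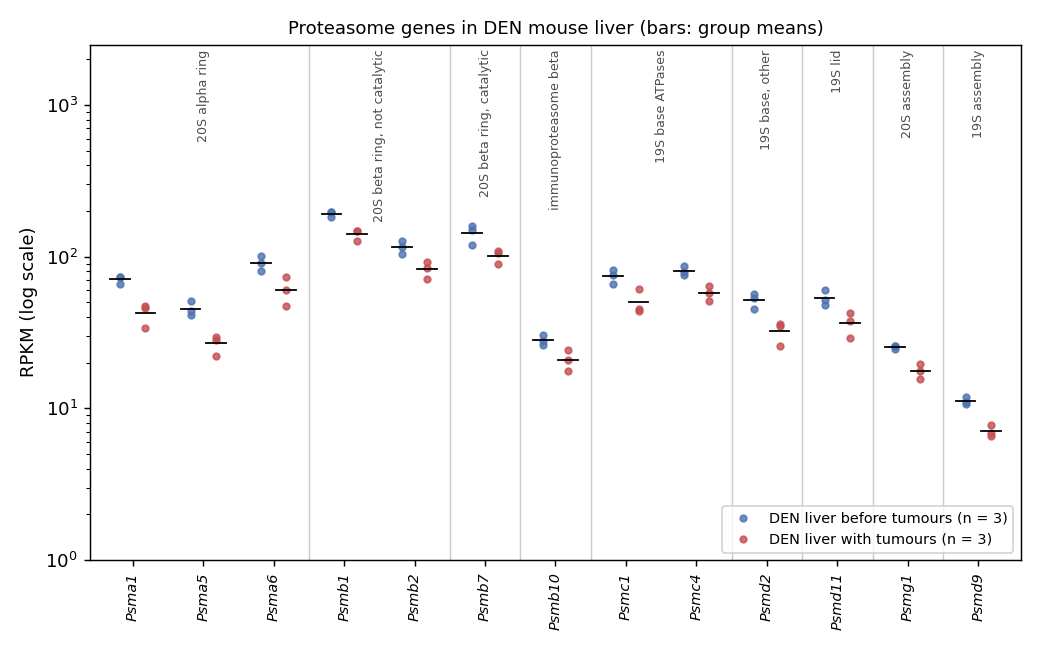
RPKM on a log scale of the 13 proteasome genes in DEN mouse liver before tumours (blue, n = 3) and with tumours (red, n = 3), by role; points are libraries and black bars group means. In all 13 genes the livers with tumours lie below, by 1.35-fold for Psmb10 to 1.69-fold for Psma5.

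The calls in the mice also depend on the scale and on single libraries. With library medians set equal, or with quantile normalization, 0 of the 13 were called. Leaving out 1 library gave 0 to 8 calls, with 0 when library 2 of the earlier group was absent, 1 when library 1 of either group was, 2 when library 3 of either group was, and 8 when library 2 of the later group was. Cell markers differed between the groups: 4 of 8 hepatocyte markers summed to 37977 to 50449 RPKM before and 122296 to 137991 RPKM with tumours, 4 of 8 macrophage markers to 63.1 to 71.3 and 25.2 to 44.9 RPKM, and 2 of 4 endothelial markers to 10.1 to 14.9 and 16.3 to 25.5 RPKM. Members of these lists differed in sign. Albumin and Apoa1 make up most of the hepatocyte sum and were called higher, while Cps1 had means of 190.7 and 88.4 RPKM (log2 fold change -1.24 ± 0.41, adjusted p = 0.135). In the macrophage list Clec4f was called lower (log2 fold change -1.97 ± 0.49, adjusted p = 0.0458) and Cd68 higher (log2 fold change 0.45 ± 0.12, adjusted p = 0.0481). The part of these cells in the proteasome values was not tested. Of the other proteasome factors Adrm1, a ubiquitin receptor of the base, fell, from 80.7 ± 12.1 to 46.7 ± 8.05 RPKM (SD, n = 3 each; log2 fold change -0.78 ± 0.18, adjusted p = 0.0246), and Usp14 and Pomp were not called (adjusted p = 0.0841 and 0.241). Of the NRF1 list of 10 symbols 5 had a value, of which Maff was called higher at 1.53 ± 0.26 and Mafg lower at -0.85 ± 0.14. In the class I list of 13 there were values for 4 genes. The interferon receptor genes Ifngr1 and Ifngr2 were called higher at 1.77 ± 0.17 and 0.61 ± 0.16, as was Pdia3 at 0.69 ± 0.18, while Stat2 was called lower at -0.69 ± 0.16.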

How the data were processed

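The authors deposited 3 tables, 1 per comparison, with a value per gene and library that was read as RPKM, since the headers name no unit. They also deposited, per the file headers, group averages, log2 ratios and p-values. For the aligner, the genome build and the counter, the answer is: not given in the sources used here. A value of 0.001 stands for no reads, every listed gene has a deposited p-value below 0.05, and 1 line naming no gene was dropped. The test was limma 3.58.1 in R 4.3.3 (two-sided, with its trend and robust options) on log2(RPKM + 1) over each whole table. It took genes that reached 1 RPKM in a number of libraries equal to the size of the smaller group. P-values were adjusted by Benjamini and Hochberg over all protein-coding genes, 21951 for the mouse table (GENCODE M21) and 23154 for both rat tables (RefSeq, GRCr8). Preselected genes can make an adjusted p too small. The procedure was run on simulated data in which few genes changed and no shift of all genes was present. That run therefore does not bear on the scaling of the libraries. Alternatives were the pseudocount (0.1), the filter (none or 5 RPKM), library medians set equal, quantile normalization, a replicate block, limma without trend and robust settings, adjustment over listed genes, all rat groups in 1 fit and leaving out each library. The set with hepatoma libraries 1 and 2 alone was chosen after seeing the data. Python 3.11.15 with pandas 2.3.3 and numpy 2.4.6 did the rest, including the depth of a library relative to another of its group, read as the most common ratio of low values. Read totals are unknown, so no counting intervals are given. Promoters came from a RefSeq table (GRCr8); 36 of 42 rat genes matched, and Psma3l, Psma7, Psmb11, Psmd6, Psmd12 and Psmd14 did not. The members and lists were chosen with earlier results of these data known. Genes described with all their values were the catalytic and immunoproteasome subunits, activators, inhibitor, assembly factors, Psmd4, Psmd14 and, in each structural group, the largest and smallest fold change. Some others that the text singles out were chosen after their values were seen. Up to 4 called genes were named from each other list.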

Additional observations from a re-analysis of the deposited data

Results flagged for a closer look

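Of 48 groups of 4 libraries, 1 per gene and rat group, 1 had a library far from the other 3 by Dixon's criterion: Psmc4 was at 170.6 RPKM in hepatoma library 2, and the others were at 105, 109 and 97.2 RPKM. Chance alone flags about 1 in 20 such groups. Hepatoma library 2 was also the highest hepatoma library in 34 of 38 proteasome genes.

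The effects in hepatoma and in regenerating liver, each against the same controls, differed in the direct test for 6 of 6 genes. The log2 difference was 2.23 for Psme3, 1.02 for Psmc4, 1.01 for Psmc5, 1.00 for Psmb4, 0.96 for Psmg2 and 0.70 for Psmd5, all higher in hepatoma (limma, adjusted p = 2.43e-07, 0.00153, 0.000732, 0.000564, 0.00109 and 0.0235). Of all 1673 genes tested 80.8% were called higher in hepatoma, with a median of 1.47, and Psme3 alone of the 6 lay above that median. With library medians set equal, the sign turned in every one of the 6 but Psme3.

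For 10 genes the DEN livers with tumours all lay below those before tumours, and the hepatomas all lay above the control livers. The log2 fold changes in the mice were -0.74 for Psma1, -0.74 for Psma5, -0.60 for Psma6, -0.46 for Psmb1, -0.48 for Psmb2, -0.49 for Psmb7, -0.58 for Psmc1, -0.48 for Psmc4, -0.67 for Psmd2 and -0.61 for Psmd9, and in the rats 1.98, 1.61, 2.29, 1.34, 1.09, 1.45, 1.23, 1.53, 2.45 and 1.79 in the same order. This difference between the models, which also differ in species, was not tested. The median of all genes tested was -0.56 in the mice and 1.58 in the rats. Without overlap, 75.1% of all genes tested in the mice lay lower and 87.2% of those tested in hepatoma lay higher. Quantile normalization turned the sign in the mice for Psma6, Psmb1, Psmb2, Psmb7, Psmc1 and Psmc4. Setting library medians equal turned it in the hepatomas for Psma5, Psmb1, Psmb2, Psmb7, Psmc1 and Psmc4.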

How the results depend on the processing

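The counts of called genes rest on the scaling. As reported, 5 genes were called in DEN mice, all lower. In hepatoma, in regenerating liver and between the rat models 38, 2 and 6 were called, all higher. With library medians set equal 0 of 13 genes were called in DEN mice and 0 of 9 in regenerating liver. In hepatoma 7 of 38 were called, 3 higher and 4 lower, and between the rat models 4 of 6, 1 higher and 3 lower. With quantile normalization 0 were called in DEN mice and 0 in regenerating liver. In hepatoma 14 were called, 13 higher and 1 lower, and between the rat models 3, 1 higher and 2 lower. Over all genes tested the median scaling gave 912 called higher and 614 lower in the mice, 2029 and 2389 in hepatoma, 19 and 59 in regenerating liver, and 445 and 482 between the rat models. Quantile normalization gave 883 and 589, 2514 and 1878, 20 and 46, and 495 and 433. With a filter of 5 RPKM 3 were called in DEN mice and 1 in regenerating liver, and with adjustment over the listed genes tested 13 and 9. The fit of all 3 rat groups holds only the genes of both rat tables, 6 of the proteasome. It gave 6 of 6 in hepatoma and 0 of 6 in regenerating liver. Psmb9 and Psmb10 are not in that fit, so its counts cannot be set against the 38 and 2 reported. Leaving out 1 library gave 0 to 8 calls in DEN mice, 36 to 38 in hepatoma, 0 to 2 in regenerating liver and 5 to 6 between the rat models. The pseudocount of 0.1, no filter, limma without trend and robust settings and hepatoma libraries 1 and 2 alone gave counts within 1.5 times those reported.

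The replicate block gave 2 calls in DEN mice, 37 in hepatoma, 1 in regenerating liver and 6 between the rat models. No sign of pairing by replicate number was seen: the deviations of same-numbered libraries correlated between -0.317 and 0.151 over genes. With so few libraries this cannot exclude pairing. Against the controls, library 4 of the hepatoma or regenerating group has no partner and adds nothing to the blocked difference. The lower counts in these comparisons are thus not read as a weaker effect. In DEN mice the median log2 fold change of the 13 genes stayed at -0.56 with the block.

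Directions that turned did so under a scaling alone. In hepatoma against control the log2 fold change with library medians set equal was Psma2 -0.66, Psma3 -0.32, Psma4 -0.092, Psma5 -0.053, Psmb1 -0.32, Psmb11 -0.25, Psmb2 -0.57, Psmb3 -0.55, Psmb4 -0.27, Psmb5 -0.80, Psmb6 -0.031, Psmb7 -0.22, Psmc1 -0.43, Psmc2 -0.32, Psmc4 -0.13, Psmc5 -0.34, Psmc6 -0.46, Psmd1 -0.73, Psmd10 -0.69, Psmd12 -0.12, Psmd5 -0.46, Psmd6 -0.74, Psmd8 -0.54, Psmg2 -0.11 and Psmg4 -0.31, and with quantile normalization Psma3 -0.22, Psmb11 -0.087, Psmc5 -0.070, Psmc6 -0.26, Psmd1 -0.18, Psmd10 -0.68, Psmd5 -0.37, Psmd6 -0.40 and Psmg2 -0.027. In regenerating liver it was Psmb4 -0.24, Psmc4 -0.12, Psmc5 -0.31, Psmd5 -0.12, Psme2 -0.021, Psme3 -0.21 and Psmg2 -0.030 with medians set equal, and Psmb4 -0.095, Psmc4 -0.021, Psmc5 -0.25, Psmd5 -0.084 and Psme3 -0.14 with quantile normalization. Between hepatoma and regenerating liver it was Psmb4 -0.54, Psmc4 -0.52, Psmc5 -0.53, Psmd5 -0.84 and Psmg2 -0.58, and Psmb4 -0.38, Psmc4 -0.34, Psmc5 -0.46, Psmd5 -0.82 and Psmg2 -0.55 in the same order of settings. In DEN mice quantile normalization gave Psma6 0.15, Psmb1 0.35, Psmb10 0.13, Psmb2 0.30, Psmb7 0.32, Psmc1 0.15, Psmc4 0.28, Psmd11 0.12 and Psmg1 0.035. The cause was not tested. Read totals are unknown, so what depth limits could not be set.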
